A study of Mus musculus with 20 samples.

Results

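The 10 genes described here encode thrombospondins and other matrix proteins with signalling or cross-linking roles. They are the thrombospondins Thbs2, Thbs3, Thbs4 and Comp, the matricellular proteins Postn, Sparc and Tnc, the adhesive glycoprotein Fn1, and the cross-linking enzymes Lox and Loxl1. They were taken by gene name from the 27962 gene names on the array, where 16 probes read them, and each gene is described by the probe that was brightest on average over all arrays. RNA came from liver and white adipose tissue (WAT) of male C57BL/6 mice of 7 months, either wild type, WT(HFD), or lacking CD44, CD44KO(HFD), all given 21 weeks of a high fat diet (HFD) of which fat made up 35%. Each of the 4 groups had 5 samples on 1-colour Agilent mouse arrays. The knockout is of the whole body and had been backcrossed onto C57BL/6J, so that every cell type of both tissues lacked CD44, a cell surface receptor for hyaluronan and other matrix molecules. All groups were on the same diet, and no lean group was analysed here.

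Matricellular proteins are secreted into the extracellular matrix but act mainly on the cells in it, through integrins and other receptors, and by binding growth factors and proteases. They are low in most resting adult tissues and are made by fibroblasts, hepatic stellate cells and vascular cells when tissue is remodelled. Lysyl oxidases cross-link collagen and elastin, and thereby stiffen the matrix that the other proteins bind.

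The 10 genes had been selected on their CD44KO(HFD) against WT(HFD) values in these same arrays, with Thbs4 set apart for its value in WAT. The genotype differences below are therefore a description, given with standard errors (SE) and without p-values. A level is the log2 of the deposited signal minus the 75th percentile of the array, so that 0 is the 75th percentile. Levels of different probes cannot be compared, because probes differ in brightness. A spot is called measured where the scanner software marked its signal as well above background.

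The arrays differed between tissues in brightness and were otherwise alike, with 1 exception. The 75th percentile was 432.7 to 574.6 on liver arrays and 1541 to 2792 on WAT arrays, which had been read on another scanner and other slides. The share of spots marked as measured ran from 57.4% to 69.5%, except for WT(HFD) WAT replicate 1 with 89.5%, so results in WAT are also given without it. Cd44 was lower in CD44KO(HFD) by a log2 fold change of -4.21 in liver and -4.58 in WAT at its brightest probe (SE 0.20 and 0.19, adjusted p = 6.65e-06 and 7.64e-06, limma). Hepatocyte markers summed to 1900 to 3030 times the 75th percentile in liver and 4.07 to 45.2 times in WAT. Adipocyte markers summed to 525 to 1320 times in WAT and 12.0 to 113 times in liver, where the adipocyte hormone Lep was not measured on any array.

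The following 60-base probes show what was read for the members on which the results turn. They are written 5′ to 3′ in lower case, with nothing capitalised, because each of them matters over its whole length.
Thbs4 (dimmer probe): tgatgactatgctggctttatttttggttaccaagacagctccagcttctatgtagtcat
Thbs2: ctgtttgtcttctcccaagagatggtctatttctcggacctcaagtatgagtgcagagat
Comp: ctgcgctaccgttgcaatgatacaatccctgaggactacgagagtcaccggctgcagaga
Fn1: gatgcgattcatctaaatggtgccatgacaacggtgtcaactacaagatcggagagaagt
Loxl1: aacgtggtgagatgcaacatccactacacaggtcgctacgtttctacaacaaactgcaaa
The files placed them on build mm7, on the minus strand except for Comp. The Thbs4 probe lay at chr13:89817559-89817618 and the Loxl1 probe at chr9:58319258-58319317. The Thbs2 probe at chr17:12950083-12951346, the Comp probe at chr8:68837003-68837136 and the Fn1 probe at chr1:71832689-71834926 spanned more genome than their own length, so that each crossed an intron. A brighter Thbs4 probe lay at chr13:89814004-89814063, 3495 bases further 3′. The longest run of bases that either Thbs4 probe shared with any of the 14 probes of the other members was 8.

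Thrombospondins come in 2 subgroups. Thbs2 is a trimer that inhibits angiogenesis and binds matrix metalloproteinases, while Thbs3, Thbs4 and Comp are pentamers. Thbs4 is known from tendon, muscle and injured tissue, and Comp is a cartilage and tendon protein that organises collagen fibrils. In liver the measured thrombospondins, Thbs2 and Thbs3, were lower in every CD44KO(HFD) sample, and Thbs4 was not measured.

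Thbs2 levels in liver were -1.37, -1.45, -1.78, -1.85 and -1.45 in WT(HFD) replicates 1 to 5, against -3.13, -2.71, -2.12, -2.86 and -2.53 in CD44KO(HFD). The highest CD44KO(HFD) array, replicate 3, lay below the lowest WT(HFD) array, so the genotypes did not overlap. The log2 fold change was -1.09 (SE 0.20, n = 5 per group). Within the 3 slides, each of which held both genotypes, it lay between -1.35 and -0.91.

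Thbs3 levels in liver were -2.30, -2.32, -2.37, -2.37 and -1.98 in WT(HFD), against -3.04, -2.93, -2.61, -2.99 and -3.01 in CD44KO(HFD). Each genotype formed a narrow band with 1 array above it, WT(HFD) replicate 5 and CD44KO(HFD) replicate 3, and the bands did not overlap. The log2 fold change was -0.65 (SE 0.11, n = 5 per group), and within slides -0.67 to -0.61.

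Neither probe of Thbs4 was measured on any of the 10 liver arrays, so no difference between genotypes was detectable there. Comp was measured on 1 liver array, CD44KO(HFD) replicate 4 at -3.78, and on none of the others. For both genes the liver values only bound the level from above.

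**Figure D1:**
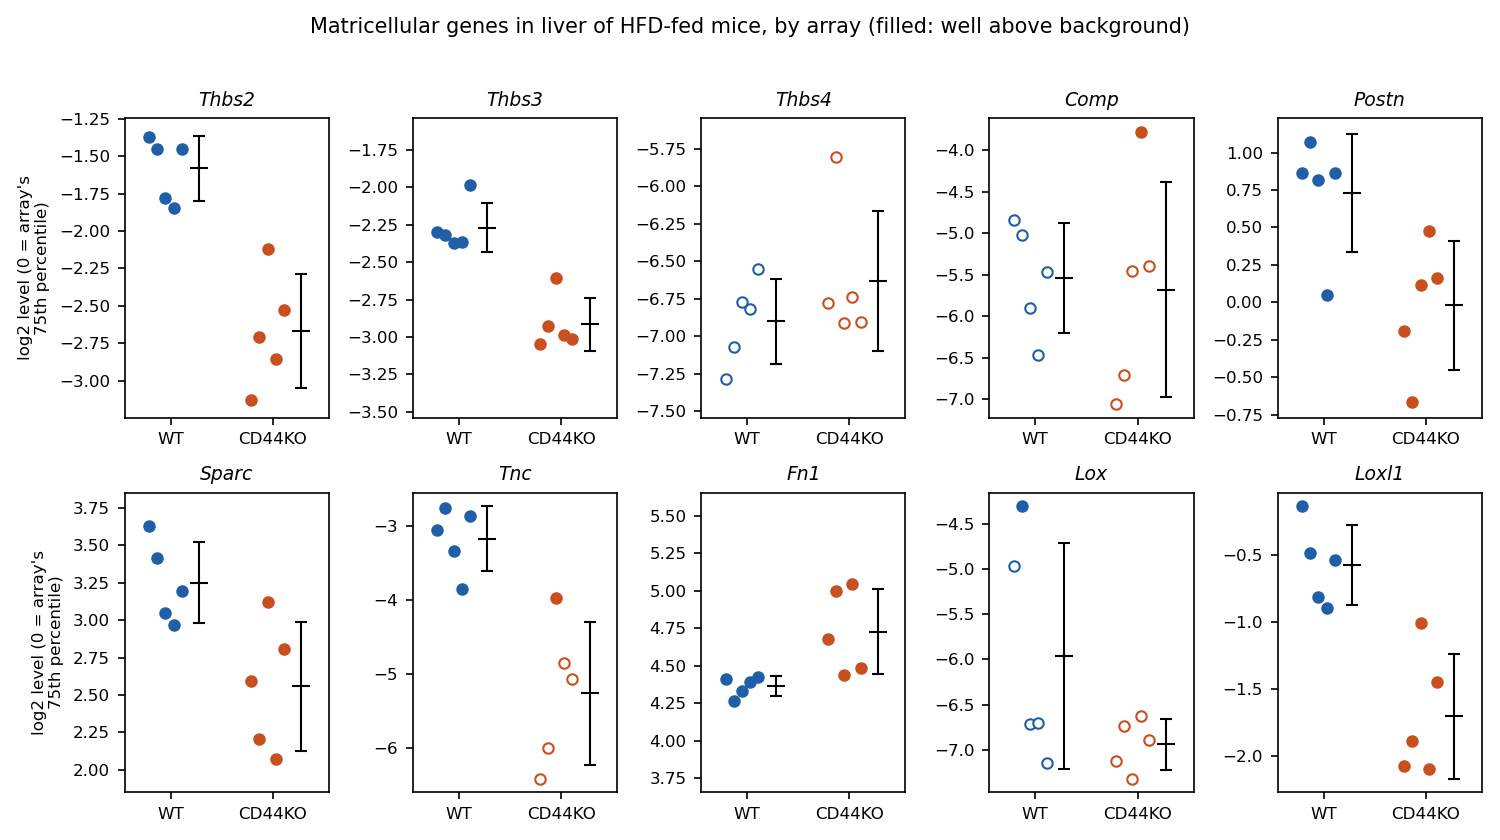
Levels in liver of the 10 genes by array (log2, 0 is the array's 75th percentile; each panel has its own axis), 5 WT(HFD) and 5 CD44KO(HFD) arrays; filled points were well above background, and the bar gives mean and SD. Thbs2, Thbs3, Tnc and Loxl1 lie lower in CD44KO(HFD) without overlap and Fn1 higher without overlap, while Thbs4, Comp and Lox are at background on nearly all arrays. In CD44KO(HFD), Tnc was well above background on 1 array only.

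Tnc, Postn and Sparc are the matricellular proteins of the set that bind collagen or fibronectin. Tenascin C (Tnc) is an adhesion-modulating protein made at sites of injury, periostin (Postn) promotes collagen assembly, and Sparc is a collagen-binding protein of many stromal cells. All were lower on average in CD44KO(HFD) liver.

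Tnc levels in liver were -3.05, -2.76, -3.34, -3.85 and -2.87 in WT(HFD), where all 5 arrays measured it. In CD44KO(HFD) they were -6.42, -6.00, -3.98, -4.85 and -5.07, and 1 array measured it, replicate 3 at -3.98. The genotypes did not overlap, with a log2 fold change of -2.09 (SE 0.48, n = 5 per group) that rests on dim values in CD44KO(HFD) and is no exact fold. The other Tnc probes were measured on at most 1 array of each group in either tissue and gave no level.

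Postn levels in liver were 0.86, 1.07, 0.82, 0.05 and 0.86 in WT(HFD), against -0.19, -0.67, 0.12, 0.48 and 0.16 in CD44KO(HFD). The groups overlapped through WT(HFD) replicate 4 alone, which lay among the CD44KO(HFD) arrays. The log2 fold change was -0.75 (SE 0.26, n = 5 per group).

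Sparc levels in liver were 3.63, 3.41, 3.05, 2.97 and 3.19 in WT(HFD), against 2.59, 2.20, 3.12, 2.07 and 2.81 in CD44KO(HFD). CD44KO(HFD) replicate 3 lay inside the WT(HFD) range and the other 4 below it. Its log2 fold change was -0.69 (SE 0.23, n = 5 per group), and a second Sparc probe gave -0.64 (SE 0.20).

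Fn1, a main product of hepatocytes as the plasma form of fibronectin, went the other way in liver. Its levels were 4.41, 4.27, 4.33, 4.39 and 4.42 in WT(HFD) and 4.68, 5.00, 4.44, 5.04 and 4.49 in CD44KO(HFD). Every CD44KO(HFD) array lay above every WT(HFD) array, though replicates 3 and 5 by little, and the log2 fold change was 0.36 (SE 0.13, n = 5 per group). Within slides it was 0.69, 0.04 and 0.35, so that on 1 of the 3 slides the genotypes were nearly level. The other Fn1 probes gave 0.49 (SE 0.14) and 0.15 (SE 0.13). Of the hepatocyte markers, 8 of 8 had a higher mean in CD44KO(HFD) liver. For 2 of them the adjusted p was under 0.05 (limma), beside 13.6% of all probes tested in liver. The sum of the hepatocyte markers was 1900 to 2660 in WT(HFD) and 2520 to 3030 in CD44KO(HFD). The part of hepatocyte RNA in the Fn1 difference was not tested.

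Of the cross-linking enzymes, Loxl1, which acts mainly on elastin, was measured on all liver arrays and Lox on 1. Loxl1 levels were -0.14, -0.48, -0.81, -0.89 and -0.54 in WT(HFD), against -2.07, -1.89, -1.01, -2.09 and -1.44 in CD44KO(HFD). CD44KO(HFD) replicate 3 was again the highest of its group and lay just below WT(HFD) replicate 4, so the genotypes did not overlap. The log2 fold change was -1.13 (SE 0.25, n = 5 per group), and within slides -1.30 to -0.89. The 1 array that measured Lox was WT(HFD) replicate 2, at -4.30.

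Over the set, 7 of the 10 members were bright enough to test in liver, and 4 of these had an adjusted p under 0.05 (limma), namely Thbs2, Thbs3, Tnc and Loxl1, all lower. This is set beside 13.6% of all probes tested in liver, and 5.75% called lower, and since the members were chosen by this comparison nothing is read from the count. Likewise 5 members did not overlap between genotypes, beside 11.7% of all probes. Tnc is in both counts, although only 1 CD44KO(HFD) array measured it. It passed the filter through WT(HFD) alone, and its call and lack of overlap rest mostly on values at background. At a probe other than the brightest, Sparc was also called lower (-0.64) and Fn1 was called higher (0.49). The median log2 fold change over the 10 members was -0.72, the dim members included, and that of all probes was 0.08. With a normexp background correction 1 of the 7 tested was called and the median over the 10 members was -0.27, with Thbs2 at -0.45, Thbs3 at -0.17 and Tnc at -0.36. By its construction normexp adds an offset that shrinks differences of dim probes, and the brighter Postn at -0.71, Sparc at -0.75 and Loxl1 at -0.80 moved less.

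The samples of a genotype differed in the same way across several members. Among the 6 members measured on all 10 liver arrays, CD44KO(HFD) replicate 3 was the highest of its group in 4 and WT(HFD) replicate 4 the lowest of its group in 4. The arrays that lay between the genotypes were therefore mostly these 2. The 3 genes outside the set whose deviations from the genotype means followed the mean of these 6 members most closely over the 10 arrays were Samd14 (r = 0.97), Ltbp3 (r = 0.96), which encodes a TGF-beta binding protein, and Pik3ap1 (r = 0.96). They are the highest among 20699 probes compared, on arrays that share slides, and are given as a description.

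Markers of cells that make matrix also had lower levels in CD44KO(HFD) liver. Of 10 stellate cell and fibroblast markers, 9 had a lower mean in CD44KO(HFD) liver, with adjusted p under 0.05 (limma) for Pdgfrb, Dcn and Dpt. All 10 were measured in both genotypes, and their summed level was 89.7 to 119 in WT(HFD) and 67.5 to 85.4 in CD44KO(HFD). Of 7 smooth muscle markers all had a lower mean, 1 of them called (Tagln), with sums of 11.4 to 14.6 and 6.84 to 9.08. Neither sum overlapped between genotypes. The calls in both lists stand beside 13.6% of all probes tested in liver, with 5.75% called lower, and nothing is read from their counts. In bulk tissue fewer cells of a type and less RNA per cell cannot be told apart, and the part of these markers in the member differences was not tested.

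The rest of the pathway was read in 5 lists of 89 genes, of which 87 had a probe and 73 were bright enough to test in liver. Of the 73, 27 fell and 2 rose in CD44KO(HFD) liver (adjusted p under 0.05, limma), with a median log2 fold change of -0.46. Over all probes tested in liver 13.6% were called, and 5.75% were called lower. Among the fibrillar collagens and elastic fibre genes 7 of 13 fell and none rose. Col1a1 fell by 2.38 on the log2 scale (SE 0.56, adjusted p = 0.0255, limma), Col1a2 by 1.67 (SE 0.39, adjusted p = 0.0257, limma) and Col5a2 by 1.62 (SE 0.40, adjusted p = 0.0285, limma), all of them chains of fibrillar collagens.

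Of 20 other matricellular genes tested, 9 fell and 1 rose. Spp1, the CD44 ligand osteopontin, fell by 1.54 (SE 0.39, adjusted p = 0.0302, limma) and Ccn5 by 1.35 (SE 0.32, adjusted p = 0.0251, limma). Thbs1, an activator of latent TGF-beta, was measured on 3 of 5 WT(HFD) and none of the CD44KO(HFD) arrays, so that its fall is a bound of at least 1.24-fold. It is counted among the 9 but was tested through its WT(HFD) arrays alone, so no p-value is given. Its other probes were not measured on any liver array. Ecm1 was the 1 that rose, by 0.43 (SE 0.10, adjusted p = 0.0222, limma).

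Of 14 genes of collagen maturation and cross-linking, 4 fell and 1 rose. Serpinh1, the collagen chaperone of the endoplasmic reticulum, fell by 1.05 (SE 0.17, adjusted p = 0.0103, limma). Loxl2, a relative of the members Lox and Loxl1, fell by 0.90 (SE 0.23, adjusted p = 0.0307, limma). Plod2, a lysyl hydroxylase, is counted among the 4 that fell, by 0.78 (SE 0.23). It was measured in WT(HFD) on 4 arrays but in CD44KO(HFD) on only 2. It thus passed the filter through WT(HFD) alone, so its fall is no exact size and no p-value is given. Pcolce2, an enhancer of procollagen processing, rose by 1.40 (SE 0.41, adjusted p = 0.0492, limma).

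Of 11 genes of TGF-beta signalling 3 fell, Ltbp2 by 1.02 (SE 0.28, adjusted p = 0.0406, limma), the receptor Tgfbr2 by 0.78 (SE 0.22, adjusted p = 0.046, limma) and Ltbp3 by 0.68 (SE 0.17, adjusted p = 0.0305, limma). Of 15 receptors of matricellular proteins 4 fell. Cacna2d1, a calcium channel subunit that binds thrombospondins, fell by 0.95 (SE 0.16, adjusted p = 0.0106, limma), the integrin chain Itga8 by 0.60 (SE 0.18, adjusted p = 0.0499, limma) and Itgb3, at its brightest probe, by 0.40 (SE 0.08, adjusted p = 0.0185, limma). The second Itgb3 probe went the other way, by 1.55 (SE 0.34, adjusted p = 0.0205, limma), so that Itgb3 has no settled direction. Of 14 called pathway genes with a further probe bright enough to test, 4 had one of opposite sign, Itgb3, Ltbp2 (0.59, SE 0.20, adjusted p = 0.0688, limma), Col2a1 and Fbln5, and it was called for Itgb3 alone. Col2a1 and Fbln5 are named here after their values were seen.

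The count of 29 pathway genes called depended on single arrays. It was 11, 5 and 16 without WT(HFD) replicates 1, 2 and 5, and 8, 12, 8 and 17 without CD44KO(HFD) replicates 1, 2, 4 and 5. It was 13 after normexp and 9 without a filter on dim probes.

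**Figure D2:**
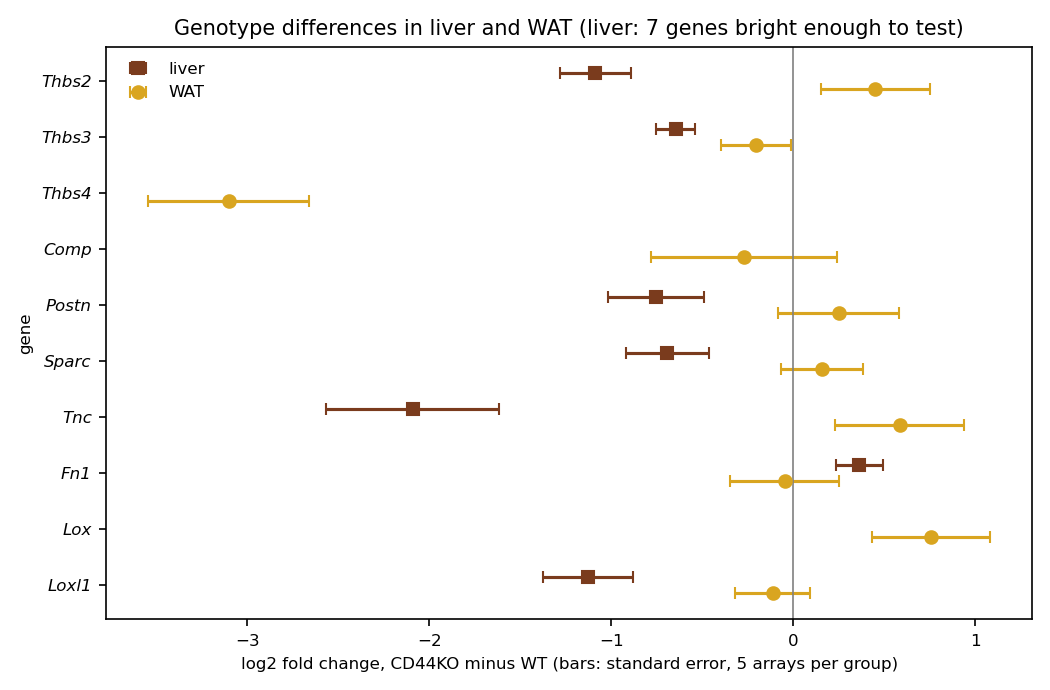
Log2 fold change of each gene, CD44KO(HFD) minus WT(HFD), in liver (squares) and WAT (circles), with the standard error over 5 arrays per group; Thbs4, Comp and Lox were too dim to test in liver and are drawn for WAT alone. Thbs4 lies at -3.10 in WAT, apart from the 9 other genes there, which lie between -0.27 and 0.76, while Tnc, Loxl1 and Thbs2 are the lowest in liver.

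In WAT the set divided into Thbs4 and the rest. Thbs4 was lower in every CD44KO(HFD) sample, by 3.10 on the log2 scale. The 9 other genes ranged from -0.27 for Comp to 0.76 for Lox, with a median of 0.16, and in each of them the genotypes overlapped. All 10 members were measured on all 10 WAT arrays.

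The brighter Thbs4 probe read -1.46, -1.69, -1.17, -0.60 and -3.19 in WT(HFD) WAT, against -4.81, -4.83, -4.40, -4.73 and -4.86 in CD44KO(HFD). The CD44KO(HFD) arrays lay close together, WT(HFD) replicate 5 was the nearest to them, and the genotypes did not overlap. The log2 fold change was -3.10 (SE 0.44, n = 5 per group), and -3.06 without WT(HFD) replicate 1. On slide 1 it was -3.81 and on slide 2, with 1 CD44KO(HFD) array, -2.38, while slide 3 held only CD44KO(HFD) arrays.

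The dimmer Thbs4 probe, whose sequence is given above, read -3.35, -3.20, -2.85, -2.84 and -3.94 in WT(HFD), against -5.32, -5.28, -3.38, -3.92 and -4.14 in CD44KO(HFD). Here CD44KO(HFD) replicates 3 and 4 lay within the WT(HFD) range, so the genotypes overlapped. Its log2 fold change was -1.17 (SE 0.44, n = 5 per group), with the same direction as the brighter probe and a smaller size. After quantile normalization the dimmer probe gave -0.17 and the brighter -2.52. Both probes carry the same accession, and why they differ in size was not tested.

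Thbs4 was the 1 member of the 10 with an adjusted p under 0.05 in WAT (limma), beside 0.0398% of all probes called and 0.0289% called lower, and the 1 member that did not overlap, beside 6.14% of all probes. As this comparison chose Thbs4, nothing is read from these counts. The call was lost with quantile normalization, without a filter on dim probes and with the slide as a block, and without each single array except WT(HFD) replicate 5, including the loss of WT(HFD) replicate 1. The log2 fold change itself stayed between -3.50 and -2.85 in the 10 fits with an array left out. Under the 8 other alternatives, the mean over its probes among them, it lay between -3.20 and -2.14.

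The rise and fall of Thbs4 among samples of 1 genotype, mainly WT(HFD), was shared by other genes. Over the 10 WAT arrays the deviations of Thbs4 from its genotype means were most like those of Il1rl1 (r = 0.95), the receptor of interleukin 33, Efemp2 (r = 0.95), a fibulin needed for elastic fibres, and Mfap5 (r = 0.95), a microfibril protein. These are the highest among 23100 probes compared and a description of these arrays. Thbs4 had an SD of 0.97 in WT(HFD) and 0.19 in CD44KO(HFD), so the r values rest mainly on the WT(HFD) arrays.

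Marker lists of other cell types had lower or higher means in CD44KO(HFD) WAT, but of 93 markers tested none had an adjusted p under 0.05 (limma), while 30 had an unadjusted p under 0.05. Of 7 mast cell markers all had a lower mean in CD44KO(HFD), 5 of them without overlap between genotypes, beside 6.14% of all probes tested. None of the 7 had an adjusted p under 0.05 (limma, lowest 0.108). Their summed level was 18.3 to 44.8 in WT(HFD), 18.3 to 41.2 without replicate 1, and 1.33 to 10.7 in CD44KO(HFD), where the tryptase gene Tpsab1 was not measured on any array. Of 8 mesothelial markers all had a lower mean, none called (lowest adjusted p = 0.165, limma), with sums of 2.61 to 13.0 and 1.21 to 4.03, and each was measured on at least 3 arrays of both genotypes. All 9 tendon and cartilage markers had a lower mean as well, none called, with sums of 3.05 to 7.03 and 3.41 to 4.90 that overlapped. Of these 9, 6 were bright enough to test. Mkx, Matn3 and Matn1 were not measured on any CD44KO(HFD) array, so no difference is read from their means. Of 10 stellate cell and fibroblast markers 7 had a lower and 3 a higher mean, with sums of 213 to 314 and 218 to 293 that overlapped. Lower means were also found for 7 of 8 macrophage, 5 of 6 platelet and 6 of 7 lymph node and B cell markers. The same held for 6 of 10 skeletal muscle and 6 of 7 epididymal markers. Other lists had higher means in CD44KO(HFD), 7 of 8 endothelial markers with sums of 13.1 to 24.2 in WT(HFD) and 30.4 to 48.2 in CD44KO(HFD), and 5 of 7 smooth muscle markers with sums of 18.6 to 26.0 and 29.8 to 43.4. All 8 adipocyte markers had a higher mean, with sums of 525 to 905 and 762 to 1320 that overlapped. The 8 hepatocyte markers had higher means as well, with overlapping sums of 4.07 to 32.1 and 10.6 to 45.2. Without WT(HFD) replicate 1 the WT(HFD) sums were 23.4 to 24.2 for endothelial, 23.7 to 26.0 for smooth muscle and 766 to 905 for adipocyte markers. They were 3.05 to 6.74 for tendon and cartilage markers and unchanged for mesothelial markers. The part of these cells in the Thbs4 difference was not tested.

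**Figure D3:**
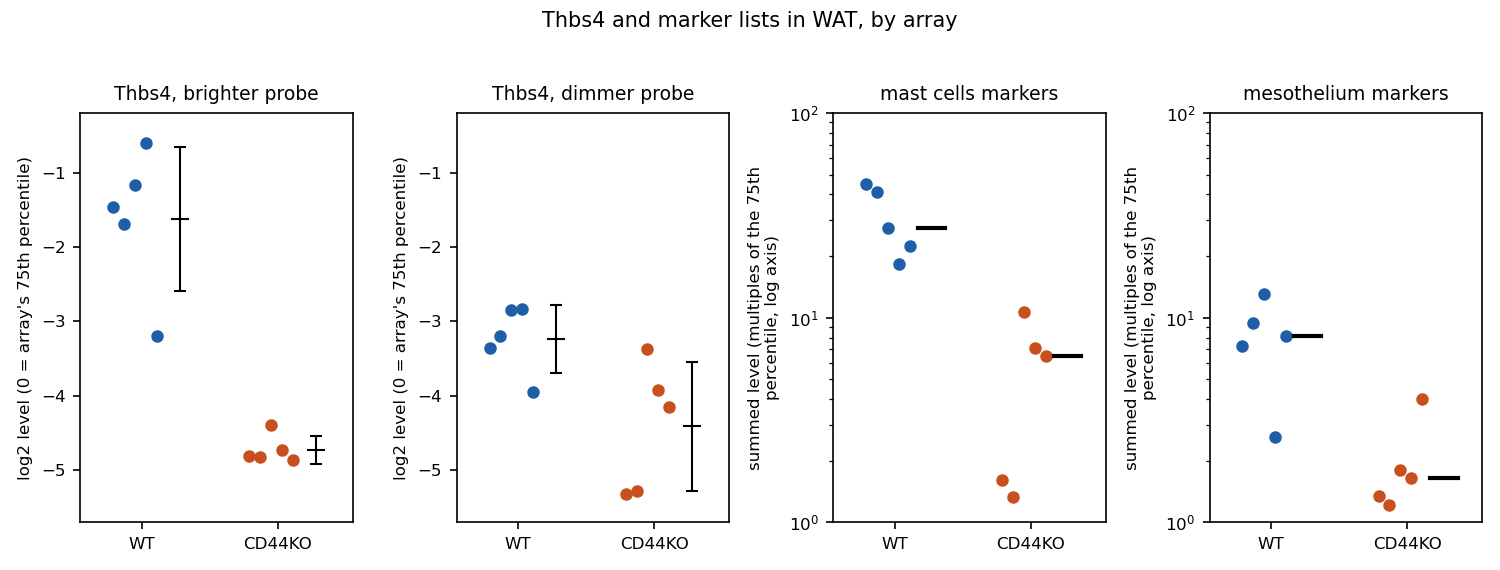
Thbs4 in WAT by array at both of its probes (log2 level, 0 is the array's 75th percentile, with mean and SD), and the summed levels of 7 mast cell and 8 mesothelial markers (multiples of the 75th percentile on a log axis, line at the median), 5 arrays per genotype. The brighter Thbs4 probe and the mast cell sum separate the genotypes, while the dimmer probe and the mesothelial sum overlap.

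The thrombospondins other than Thbs4 differed little between genotypes in WAT relative to their spread. Thbs2 levels were 0.67, 0.999, 1.60, 1.24 and -0.02 in WT(HFD) and 0.89, 1.50, 1.58, 1.36 and 1.41 in CD44KO(HFD). WT(HFD) replicate 5 was the lowest array here, and the lowest of the WT(HFD) arrays for Thbs4, and the log2 fold change was 0.45 (SE 0.30, n = 5 per group). Thbs3 had -0.20 (SE 0.19). Comp, with -0.27 (SE 0.51), was even in WT(HFD) at -0.23 to 0.38 and spread over -1.47, -1.39, 1.18, 0.12 and -0.14 in CD44KO(HFD), so that its samples lay on both sides of the WT(HFD) range.

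Tnc levels in WAT were -0.94, -1.81, -2.01, -1.08 and -2.66 in WT(HFD) and -1.43, -0.50, -1.31, -1.16 and -1.17 in CD44KO(HFD). All 5 CD44KO(HFD) arrays lay above the WT(HFD) mean, although the groups overlapped, and the log2 fold change was 0.59 (SE 0.35, n = 5 per group), where liver had -2.09. Lox levels were -0.32, 0.33, 0.65, 0.99 and 0.86 in WT(HFD) and 0.50, 1.30, 1.90, 1.40 and 1.20 in CD44KO(HFD), with CD44KO(HFD) replicate 1 alone among the WT(HFD) arrays. Its log2 fold change was 0.76 (SE 0.33, n = 5 per group), and 0.55 without WT(HFD) replicate 1.

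The remaining members, Postn at 0.25 (SE 0.33), Sparc at 0.16 (SE 0.23), Fn1 at -0.05 (SE 0.30) and Loxl1 at -0.11 (SE 0.21), differed by less than the SD of their WT(HFD) arrays. Without WT(HFD) replicate 1 Sparc was at -0.01 and the median over the 10 members turned from 0.06 to -0.07. The second Sparc probe gave 0.49 (SE 0.21), and the other Fn1 probes -0.35 (SE 0.34) and -0.86 (SE 0.69), the latter -0.32 without WT(HFD) replicate 1. The median over all probes tested in WAT was -0.06.

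**Figure D4:**
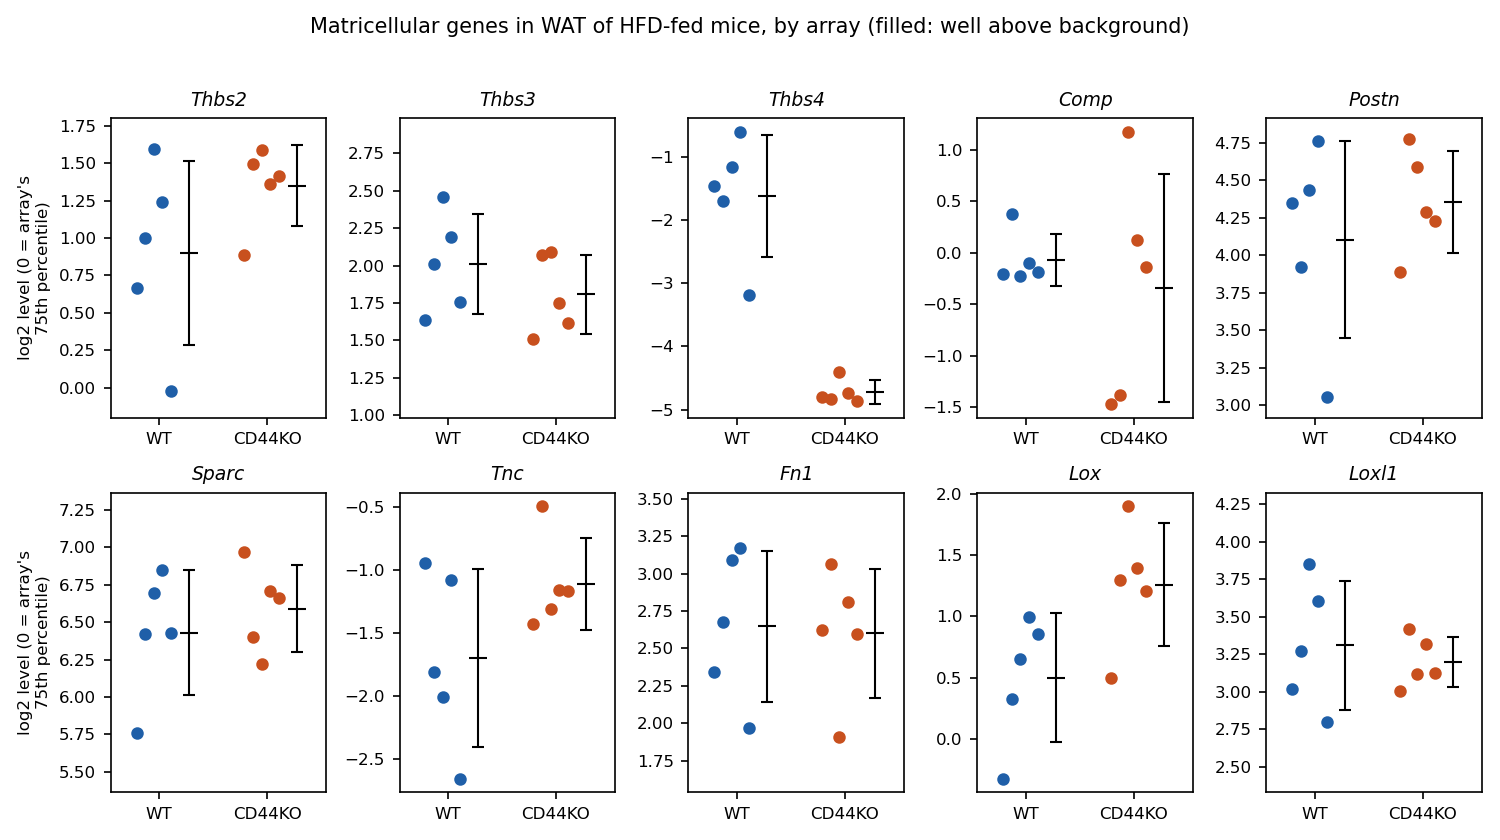
Levels in WAT of the 10 genes by array (log2, 0 is the array's 75th percentile; each panel has its own axis), 5 WT(HFD) and 5 CD44KO(HFD) arrays, with mean and SD. Thbs4 is the 1 gene whose genotypes do not overlap.

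Some WAT samples were low or high across the set. WT(HFD) replicate 5 was the lowest of its group in 6 of the 10 members and replicate 4 the highest in 5, and CD44KO(HFD) replicate 1 was the lowest of its group in 7. The mean of the 9 members other than Thbs4 followed Tnfrsf11a (r = 0.97), Uhrf2 (r = 0.97) and Ccna2 (r = 0.96) most closely over the 10 arrays, none of them a matrix gene. None of the 79 pathway genes tested in WAT had an adjusted p under 0.05 (limma, lowest 0.135), while 11 had an unadjusted p under 0.05, 7 lower and 4 higher. Their median log2 fold change was -0.04.

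In WT(HFD) mice 9 of the 10 members had a higher level in WAT than in liver. This comparison of WT(HFD) WAT with WT(HFD) liver was not used to choose the members, although it shares the WT(HFD) arrays with the comparisons that were. Tissue, slides and scanner cannot be told apart in it, and levels are relative to the 75th percentile of each tissue's own arrays. The labels do not say whether liver and WAT samples came from the same mice, and the fit took them as independent. All 10 members passed an adjusted p of 0.05 (limma), beside 71.7% of all probes tested, so calls in either direction are common in this comparison. By direction, 9 members were called higher in WAT and 1 lower. Of the 28364 probes tested, 9912 were called higher in WAT and 10421 lower. Thbs4, Comp and Lox were tested through their WAT arrays alone, since at most 1 WT(HFD) liver array measured them. Nothing is read from their calls.

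Thbs3 was at 2.01 ± 0.33 (SD, n = 5) in WT(HFD) WAT and -2.27 ± 0.16 (SD, n = 5) in WT(HFD) liver, a log2 difference of 4.28 (SE 0.16, adjusted p = 6.4e-14, limma). Loxl1 differed by 3.88 (SE 0.22, adjusted p = 2.2e-11, limma), Postn by 3.37 (SE 0.29, adjusted p = 5.4e-09, limma), Sparc by 3.18 (SE 0.22, adjusted p = 3.4e-10, limma) and Thbs2 by 2.48 (SE 0.25, adjusted p = 4.45e-08, limma). For each of these the tissues did not overlap. Tnc differed by 1.48 (SE 0.40, adjusted p = 0.00298, limma), and after normexp by 0.70 (adjusted p = 0.0635, limma).

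For the members that were not measured on any WT(HFD) liver array the difference is a bound. Comp was at least 26.8-fold higher in WAT and Thbs4 at least 9.78-fold. No p-value is given for these bounds, because the fit took liver values at background as levels. Lox was at 0.50 ± 0.53 (SD, n = 5) in WT(HFD) WAT and was measured on 1 of 5 WT(HFD) liver arrays, at -4.30, so that no exact difference is given for it. In CD44KO(HFD) mice Thbs4 was at -4.72 ± 0.19 (SD, n = 5) in WAT, where 5 of 5 arrays measured it. It was at least 1.10-fold higher in WAT than in liver. This bound is small because the WAT level was near the lowest signal well above background on the liver arrays.

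Fn1 alone was lower in WAT, at 2.65 ± 0.50 (SD, n = 5) against 4.36 ± 0.07 (SD, n = 5) in liver, a log2 difference of -1.72 (SE 0.23, adjusted p = 1.68e-06, limma). Its other probes gave -0.41 (SE 0.25, adjusted p = 0.151, limma) and -1.96 (SE 0.47, adjusted p = 0.00115, limma). Fn1 was thus the member with the higher level in liver and the only member measured there whose level was higher in CD44KO(HFD).

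**Figure D5:**
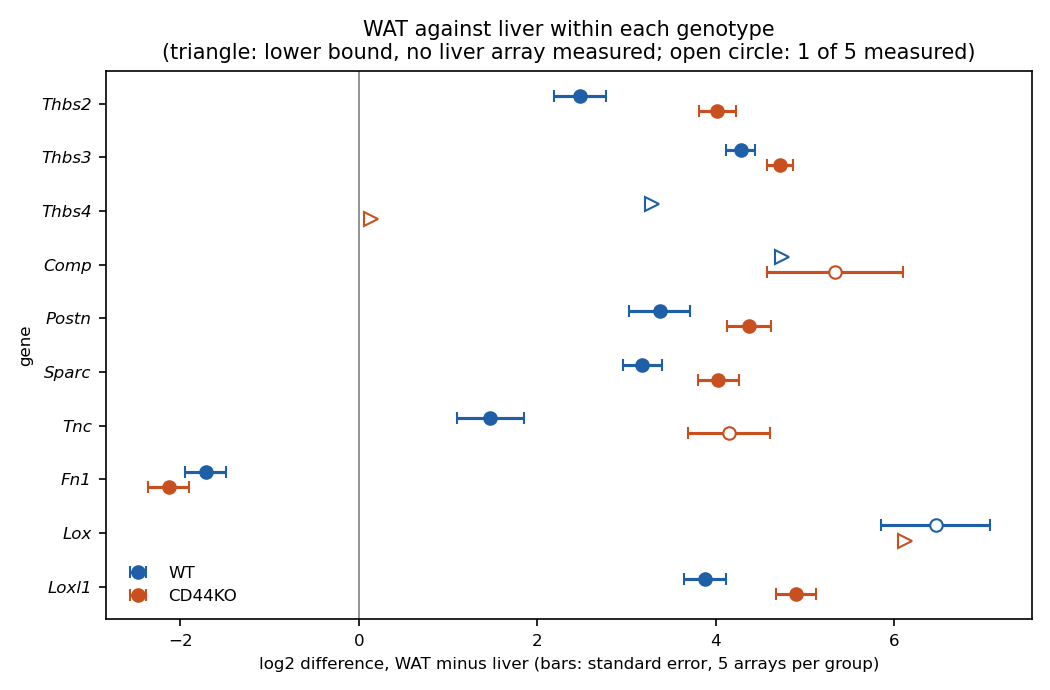
Log2 difference between WAT and liver for each gene within WT(HFD) and within CD44KO(HFD), with the standard error over 5 arrays per group; triangles are lower bounds, without an error, where no liver array measured the gene, and open circles rest on 1 measured liver array of 5 and are no exact difference. Fn1 lies below 0 in both genotypes and all other genes above 0, with the bound for Thbs4 at 3.29 in WT(HFD) and 0.14 in CD44KO(HFD).

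Promoters of members that were lower in CD44KO(HFD) liver without overlap between genotypes, and of Thbs4, are shown to let their sequences be set side by side. The RefSeq table for GRCm38.p6 held promoters of 6 members, Thbs2, Thbs3, Thbs4, Postn, Sparc and Tnc, with 2 starts each for Postn and Tnc. The 250 bases before the start are printed 5′ to 3′ on the strand of the gene. Capitals mark 4 short motifs on either strand. The TATA motif was searched as TATAAA. The GC box was searched as GGGCGG. The motif of SMAD factors, which act downstream of TGF-beta, was searched as CAGACA. The motif of AP-1 was searched as TGANTCA, where N is any base.
Thbs2: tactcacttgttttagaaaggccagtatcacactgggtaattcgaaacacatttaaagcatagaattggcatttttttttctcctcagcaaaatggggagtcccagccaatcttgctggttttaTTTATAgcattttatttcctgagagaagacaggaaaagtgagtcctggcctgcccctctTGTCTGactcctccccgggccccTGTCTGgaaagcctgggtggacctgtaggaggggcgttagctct
Thbs3: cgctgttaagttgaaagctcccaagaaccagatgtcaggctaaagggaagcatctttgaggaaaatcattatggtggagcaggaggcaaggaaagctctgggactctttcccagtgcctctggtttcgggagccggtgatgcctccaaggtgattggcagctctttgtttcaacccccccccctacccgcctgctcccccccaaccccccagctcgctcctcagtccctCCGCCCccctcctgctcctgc
Tnc: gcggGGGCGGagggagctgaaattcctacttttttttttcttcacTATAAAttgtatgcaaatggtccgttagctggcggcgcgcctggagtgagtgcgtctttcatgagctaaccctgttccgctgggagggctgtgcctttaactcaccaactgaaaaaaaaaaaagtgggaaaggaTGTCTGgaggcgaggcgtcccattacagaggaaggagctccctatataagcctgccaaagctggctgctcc
Thbs4: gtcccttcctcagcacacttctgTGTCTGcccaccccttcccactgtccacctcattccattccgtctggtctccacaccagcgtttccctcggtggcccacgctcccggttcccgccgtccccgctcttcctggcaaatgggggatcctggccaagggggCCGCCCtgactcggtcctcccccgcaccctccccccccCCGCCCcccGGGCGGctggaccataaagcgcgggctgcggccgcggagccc
They lie on the minus strand at chr17:14694263-14694512 (Thbs2), chr4:64046937-64047186 (Tnc) and chr13:92794819-92795068 (Thbs4), and on the plus strand at chr3:89214930-89215179 (Thbs3).

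The promoter of Thbs2 held the SMAD motif at 2 places and the TATA motif at 1. That of Thbs3 held the GC box at 1 place and no other of these motifs, and the printed one of Tnc held 1 each of the TATA motif, the GC box and the SMAD motif. Of the promoters not printed, the other one of Tnc held the TATA motif and the GC box at 1 place each, that of Sparc the SMAD motif at 1, and of both of Postn 1 held the TATA motif at 1 place and the other none of the motifs. Thbs4 held the GC box at 3 places and the SMAD motif at 1, and with 70.8% of G and C it was the richest of the 6 genes, beside a median of 52.4% over 32851 promoters. Of all promoters, cut to the same length, 12.4% held the TATA motif, 32.7% the GC box, 17.1% the SMAD motif and 6.75% the AP-1 motif, which none of the members' promoters held. None of the printed matches overlapped another. These matches describe letters and not binding.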

How the data were processed

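Agilent Feature Extraction 9.5.3.1 made the deposited values, a linear fluorescence intensity per spot from which, per the file headers, no background had been subtracted. Trends within arrays had been corrected and the dimmest signals replaced by estimates. The values deposited for the whole series were identical. No normalization between arrays was given in the sources used here. The intensity was put on the log2 scale, outlier and control spots were dropped, each array was centred on its 75th percentile, and replicate spots were averaged. A probe was tested where 3 or more of the 5 arrays in either group measured it, with limma 3.58.1 in R 4.3.3 (package data.table, version 1.17.8), Benjamini-Hochberg adjusted at 0.05, within each tissue for genotype, and over all 20 arrays for tissue. For a probe not measured in a group, folds are bounds against the lowest signal well above background on each array. Standard errors beside a limma p are those of the fit, and others come from the SDs of both groups. The test was tried on simulated data.

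Each array held 45018 spots, and the number of arrays limits precision. Nothing says that samples were pooled, and p-values measure the spread between these samples. Members, pathway lists and marker lists were chosen with earlier results of these data known. Named outside the members are Cd44, up to 3 called genes per pathway list and direction by size, the 3 genes nearest in pattern, and markers. Alternatives were normexp background (offset 50), quantile normalization, other filters, slide or replicate as a block, other sets of arrays, the mean over probes, and leaving arrays out. The counts of members called under these alternatives, the WAT marker sums and further member probes without WT(HFD) replicate 1, and the further probes of pathway genes were added after seeing the data.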

Additional observations from a re-analysis of the deposited data

Results flagged for a closer look

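In each group of 5 arrays, each member was checked for a lone sample far from the others, 40 groups in all, of which chance flags about 1 in 20. There were 6 such samples, 4 of them in liver. Thbs3 stood apart in WT(HFD) liver replicate 5 at -1.98 and in CD44KO(HFD) liver replicate 3 at -2.61, both above the rest of their group. Postn stood apart below its group in WT(HFD) liver replicate 4 at 0.048. Thbs4 in CD44KO(HFD) liver replicate 2, at -5.80, was not well above background. In WAT, Thbs4 stood apart in CD44KO(HFD) replicate 3 at -4.40 and Comp in WT(HFD) replicate 2 at 0.38, both above the rest of their group.

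Tnc differed in direction between the tissues. All 5 CD44KO(HFD) liver arrays lay below the WT(HFD) mean, with a log2 fold change of -2.09, and all 5 CD44KO(HFD) WAT arrays above it, with 0.59. The difference between the tissues was not tested, since the members were chosen on both comparisons.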

How the results depend on the processing

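In liver, the 3358 probes called became 641 after normexp, 1027 without a filter on dim probes and 723 in a fit of all 20 arrays, and the 29 pathway genes became 13, 9 and 17. Leaving out an array gave 858 to 4647 probes and 5 to 37 pathway genes, and 3 to 6 members in place of 4. The members' median in liver, -0.72, became -0.27 after normexp, and lay between -0.84 and -0.62 with an array left out. In WAT, the 11 probes became 35 after normexp, 3 without a filter, 4 with the slide as a block and 1817 in a fit of all 20 arrays, which called 3 pathway genes. Leaving out an array gave 3 to 19 probes. The members' median in WAT, 0.06, was 0.37 within slide 2. Lox in liver, at background on 9 of 10 arrays, turned from -0.98 to 0.17 after normexp. Tnc in WAT turned from 0.59 to -0.20 when its 3 probes were averaged. Its other probes, too dim to give a level, differed by -0.967 and -0.205. Without WT(HFD) WAT replicate 1 they differed by 0.162 and 0.53, so the turn rests on that array. With the 3 probes averaged, the difference of Tnc between tissues lost its call (0.41, adjusted p = 0.52, limma). In the comparison of tissues 9 or 10 members were called under each alternative. Of 564 values of single members under an alternative, 552 moved by less than the spread between replicates or kept their side of the threshold.

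Replicate numbers were not used to pair the samples in the main fit. Same-numbered samples of both genotypes deviated together only in part, with r from -0.04 to 0.42 (liver) and -0.21 to 0.09 (WAT). Some same-numbered samples also shared a slide, so these r values cannot show whether the numbers paired the samples. With the replicate number as a block 1329 probes and 13 pathway genes were called in liver and 3 probes in WAT, where Thbs4 was not called. The cause of these changes was not tested. Signal over background limits Thbs4, Comp and Lox in liver, and Tnc in CD44KO(HFD) liver, to bounds.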
